A study of Mus musculus with 10 samples.

Results

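The genes described here are App, which encodes the amyloid precursor protein, and 8 genes of the secretases that cut it: Bace1, Bace2, Psen2, Ncstn, Aph1a, Aph1b, Psenen and Adam10. The rule names them by symbol and uses no measured value, though earlier results of these data were known when it was written. Where several transcript clusters (the array's probe sets) carried a member's symbol, the brightest on average over the arrays stood for the gene. All 9 were measured, out of 19938 genes on the array, and no filter on low values was applied. Each of the 10 arrays read the hippocampi of both sides from 1 male mouse of 16 weeks, with 5 Tg(Dyrk1a) mice and 5 wild-type littermates. Tg(Dyrk1a) mice carry, beside their own copies, a bacterial artificial chromosome with the kinase gene Dyrk1a, so that App and the secretase genes keep their normal copy number. The labels give a C57BL/6N background for both groups, whereas the methods describe backcrossing towards C57BL/6J. The cells and the regulatory sequence that drive the transgene were not given in the sources used here.

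The amyloid precursor protein is a membrane protein of neurons that is cut in a fixed order. The α-secretase ADAM10 cuts inside the amyloid-β segment and releases a soluble ectodomain, or the β-secretase BACE1 cuts at the start of that segment, and the γ-secretase complex then cuts the remaining stub within the membrane. The γ-secretase complex is built of a presenilin, which is the catalytic subunit, nicastrin, an APH-1 protein and PEN-2. App lies on human chromosome 21, and people with Down syndrome develop amyloid plaques early in life. DYRK1A is known to phosphorylate the amyloid precursor protein, and the arrays compare the transcript levels of App and its enzymes between mice with and without the added Dyrk1a.

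App and Bace2 lie on the same mouse chromosome as Dyrk1a. In GRCm38.p6, the patch release of the mm10 build named in the submitters' processing notes, App spans chromosome 16 from 84952666 to 85175255 and Bace2 from 97356728 to 97442936. Their gaps to Dyrk1a are 9.39 and 2.66 Mb. Bace1 (45838545 to 45862484), Aph1b (66775202 to 66797345) and Adam10 (70678944 to 70780229) lie on chromosome 9. Ncstn (172066013 to 172082789) and Psen2 (180227004 to 180263467) lie on chromosome 1, Aph1a (95893921 to 95898592) on chromosome 3 and Psenen (30561865 to 30563627) on chromosome 7.

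Promoter windows were at hand for 7 of the 9 members, from RefSeq in GRCm38.p6, each of 300 bases around a listed start of transcription. The windows of App (chr16:85173658-85173957, minus strand), Adam10 (chr9:70678732-70679031, plus strand), Psen2 (chr1:180256251-180256550, minus strand) and Aph1a (chr3:95893671-95893970, plus strand) are printed because App with Adam10 and Psen2 with Aph1a had the highest Pearson r across the mice. No pair passed adjustment, and by Spearman's rho Psen2 with Aph1b (0.81) was above App with Adam10 (0.76). The Aph1a values came from a transcript cluster numbered among genes of chromosome 1. For Psen2, with 2 listed starts, the window of the upstream start is shown. Capitals mark matches to the GC box GGGCGG on either strand, which may overlap each other.
App: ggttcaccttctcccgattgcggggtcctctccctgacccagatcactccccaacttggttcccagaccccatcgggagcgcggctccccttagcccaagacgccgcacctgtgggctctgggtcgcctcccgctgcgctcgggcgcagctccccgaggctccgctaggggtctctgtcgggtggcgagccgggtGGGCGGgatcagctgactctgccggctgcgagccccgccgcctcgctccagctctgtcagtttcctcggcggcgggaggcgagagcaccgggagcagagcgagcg
Adam10: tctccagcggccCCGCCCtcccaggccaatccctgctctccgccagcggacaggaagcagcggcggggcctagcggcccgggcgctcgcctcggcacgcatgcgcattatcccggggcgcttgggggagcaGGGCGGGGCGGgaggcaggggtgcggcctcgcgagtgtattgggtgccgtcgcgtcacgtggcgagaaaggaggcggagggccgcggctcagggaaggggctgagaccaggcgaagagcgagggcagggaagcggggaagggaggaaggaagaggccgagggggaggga
Psen2: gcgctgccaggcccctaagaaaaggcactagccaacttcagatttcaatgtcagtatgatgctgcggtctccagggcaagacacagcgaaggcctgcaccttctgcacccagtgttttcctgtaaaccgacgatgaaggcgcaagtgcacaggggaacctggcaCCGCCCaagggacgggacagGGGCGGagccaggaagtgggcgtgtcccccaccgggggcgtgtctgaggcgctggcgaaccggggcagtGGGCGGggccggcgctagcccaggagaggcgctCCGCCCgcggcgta
Aph1a: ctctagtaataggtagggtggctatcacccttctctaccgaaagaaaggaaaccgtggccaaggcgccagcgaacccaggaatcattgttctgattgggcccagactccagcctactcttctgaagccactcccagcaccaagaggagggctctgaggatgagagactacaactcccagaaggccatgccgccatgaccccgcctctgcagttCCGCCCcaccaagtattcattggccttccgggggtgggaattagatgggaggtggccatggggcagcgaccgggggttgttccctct
The App window held 1 GC box, that of Aph1a 1, that of Adam10 3 and that of Psen2 4, and 35.7% of all 32851 promoter windows of this length held at least 1. The App window was 71.0% G and C with 30 CpG dinucleotides and the Adam10 window 73.3% with 32, where the median window had 52.7% and 7. The Psen2 and Aph1a windows were at 65.7% and 58.0%. The TATA box TATAAA, searched on both strands, was found in none of the 4 windows and in 13.6% of all windows. The CCAAT box was found in the Adam10 and Aph1a windows, 2 matches each, and in 37.4% of all windows. These matches describe the letters only and were not tied to any measurement on the arrays.

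The deposited values are log2 RMA values, and the median of an array was 6.57 to 6.66. All 10 hippocampal neuron markers on a fixed list (among them Camk2a, Slc17a7 and Prox1) were above the array median on every array. The mice differed in markers of tissues next to the hippocampus. A choroid plexus score, the mean over 14 markers of the log2 value minus its mean over the arrays, ran from -0.59 to 0.97 in Tg(Dyrk1a) and from -0.44 to 0.84 in wild-type mice, and it exceeded 0.5 in 2 transgenic mice (replicates 2 and 4) and 1 wild-type mouse (replicate 5). Of those 14 markers, 3 were above the array median on all arrays. The score of 12 vessel markers ran from 0.01 to 0.11 in Tg(Dyrk1a) and from -0.18 to 0.02 in wild-type mice, that of 12 meningeal markers from -0.07 to 0.24 and from -0.22 to 0.04, and that of 10 thalamic markers from -0.14 to -0.00623 and from -0.14 to 0.53. Of the vessel markers 5 and of the meningeal markers 5 were higher in Tg(Dyrk1a) at an unadjusted limma p under 0.05, against 2.99% of all transcript clusters, and none of either list passed adjustment. Of the thalamic markers 9 of 10 were below 0, and Ramp3, at a log2 fold change of -0.34, was the only one lower at an unadjusted limma p under 0.05, against 1.94% of all transcript clusters. The high end of the thalamic score was 1 array, wild type replicate 5, which was also choroid-rich. Wild-type replicates 1 to 4 scored -0.08, -0.14, 0.08 and -0.05, near the Tg(Dyrk1a) mice. Alternative fits left out the 3 choroid-rich arrays or took the choroid plexus, meningeal and thalamic scores as covariates. The part of the vessel score in the results was not tested. In such bulk tissue, fewer cells of a type and less RNA per cell cannot be told apart.

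Dyrk1a itself was higher in the transgenic mice. Its log2 value was 11.28, 11.15, 11.14, 11.19 and 11.15 in wild-type replicates 1 to 5 and 11.65, 11.62, 11.67, 11.65 and 11.68 in Tg(Dyrk1a) replicates 1 to 5. The groups did not overlap, and the log2 fold change of 0.47 ± 0.03 (SE) passed limma with an adjusted p of 0.000138. By exact permutation p was 0.00794, and 5 mice against 5 can give none smaller. With the choroid plexus, meningeal and thalamic scores as covariates the log2 fold change was 0.45 and did not pass (limma adjusted p = 0.413). The fold was 1.38 with a 95% interval of 1.31 to 1.46. A dimmer Dyrk1a transcript cluster was 1.11-fold higher and did not pass (limma adjusted p = 0.947, exact permutation p = 0.00794).

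None of the 9 genes of App processing passed the test between the genotypes. Their log2 fold changes (transgenic minus wild type) lay between -0.02 for Psen2 and 0.04 for Ncstn with a median of 0.01, and their 95% intervals stayed between -0.12 and 0.16. In percent of the wild-type level the widest limits were -8.17% for Bace2 and 11.5% for Aph1b. The intervals therefore all lay below the log2 value of 0.58 of a 1.5-fold rise. They also lay below that of the brighter Dyrk1a transcript cluster, which ran from 0.40 to 0.54 and so itself ended below 0.58. The dimmer Dyrk1a transcript cluster had an interval of 0.05 to 0.26, and the intervals of all 9 members overlapped it. By limma 0 of 9 passed at an adjusted p under 0.05, and the adjusted p ranged from 0.953 to 0.999. Of the 23410 annotated transcript clusters 0.00854% passed, 0.00427% higher and 0.00427% lower. Without adjustment 0 of 9 had a limma p under 0.05, against 4.93% of all transcript clusters, 2.99% higher and 1.94% lower. The exact permutation p ranged from 0.198 to 0.976. The rank method of the study, FCROS, placed 0 of 9 past its threshold, against 4.83% of all transcript clusters, and the groups of every member overlapped, where 0.807% of transcript clusters had groups apart. Estimates were above 0 for 6 members and below 0 for 3, and 50.9% of all transcript clusters were above 0.

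**Figure D1:**
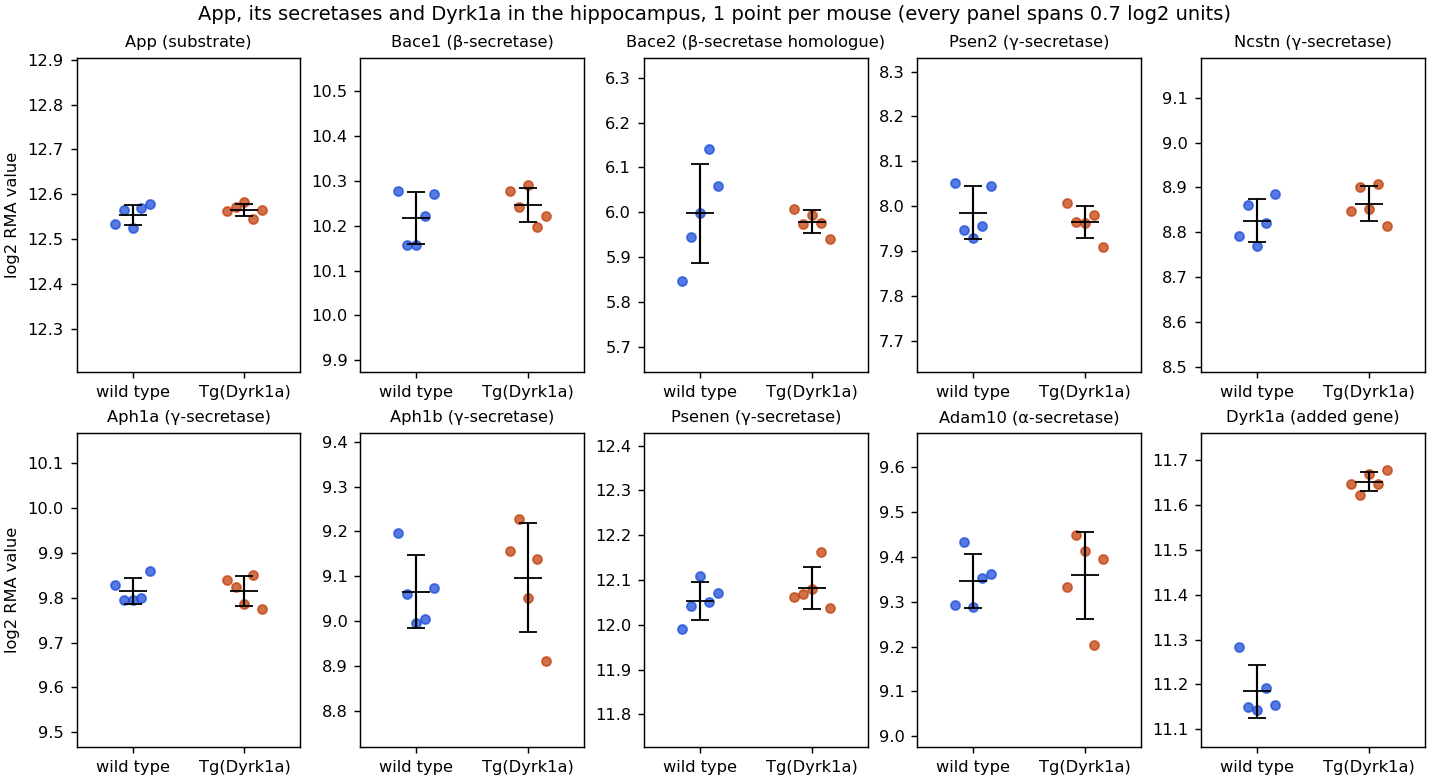
Log2 RMA values (vertical axes, each spanning 0.7 log2 units) of App, 8 secretase genes and Dyrk1a in wild-type and Tg(Dyrk1a) hippocampus, each mouse as a point, and the bars show the group mean and SD (n = 5). The genotypes overlap in all 9 panels of App and the secretases and are apart in the Dyrk1a panel, at 11.18 ± 0.06 against 11.65 ± 0.02.

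App, the substrate, was the steadiest of the 9. It measured, in log2, 12.53, 12.56, 12.53, 12.57 and 12.58 in wild-type replicates 1 to 5 and 12.56, 12.57, 12.58, 12.55 and 12.56 in Tg(Dyrk1a) replicates 1 to 5. All Tg(Dyrk1a) mice lay between 12.55 and 12.58 and the wild-type mice between 12.53 and 12.58, so the groups overlapped. The means were 12.56 ± 0.01 in Tg(Dyrk1a) and 12.55 ± 0.02 in wild-type mice (SD, n = 5 each), a log2 fold change of 0.01 ± 0.03 (SE) with a 95% interval of -0.05 to 0.07, or -3.21% to 4.92%. The limma adjusted p was 0.982 and the exact permutation p 0.365. The within-group SD of 0.02 was smaller than that of 99.7% of annotated transcript clusters. This transcript cluster is bright, with 99.5% of the others dimmer, and RMA values near the top of the range can be compressed, which was not tested here.

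Of the β-secretases, Bace1 cuts the amyloid precursor protein in neurons, and Bace2 is its homologue. The log2 value of Bace1 was 10.28, 10.16, 10.16, 10.22 and 10.27 in wild-type replicates 1 to 5 and 10.28, 10.24, 10.29, 10.20 and 10.22 in Tg(Dyrk1a) replicates 1 to 5. Replicates with high and low values occurred in both groups. The Bace1 log2 fold change was 0.03 ± 0.04 (SE) with a 95% interval of -0.05 to 0.11 (limma adjusted p = 0.969). The log2 value of Bace2 was 5.85, 5.94, 5.998, 6.14 and 6.06 in wild-type replicates 1 to 5 and 6.01, 5.97, 5.99, 5.98 and 5.94 in Tg(Dyrk1a) replicates 1 to 5. The 5 Tg(Dyrk1a) values lay inside the wild-type range, with an SD of 0.03 against 0.11, and that difference in spread was not tested. The Bace2 log2 fold change was -0.02 ± 0.05 (SE) with a 95% interval of -0.12 to 0.09 (limma adjusted p = 0.983). The Bace2 transcript cluster lay below the array medians, with only 31.0% of annotated transcript clusters dimmer, and RMA understates changes of dim transcripts, by how much was not tested.

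Adam10, the main α-secretase of neurons, was more variable. The arrays read, in log2, 9.29, 9.43, 9.29, 9.35 and 9.36 in wild-type replicates 1 to 5 and 9.33, 9.45, 9.41, 9.20 and 9.40 in Tg(Dyrk1a) replicates 1 to 5. The lowest of all 10 mice was Tg(Dyrk1a) replicate 4 and the highest Tg(Dyrk1a) replicate 2, so that the transgenic group spanned the wild-type group. Its log2 fold change was 0.01 ± 0.05 (SE) with a 95% interval of -0.09 to 0.12 (limma adjusted p = 0.985).

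**Figure D2:**
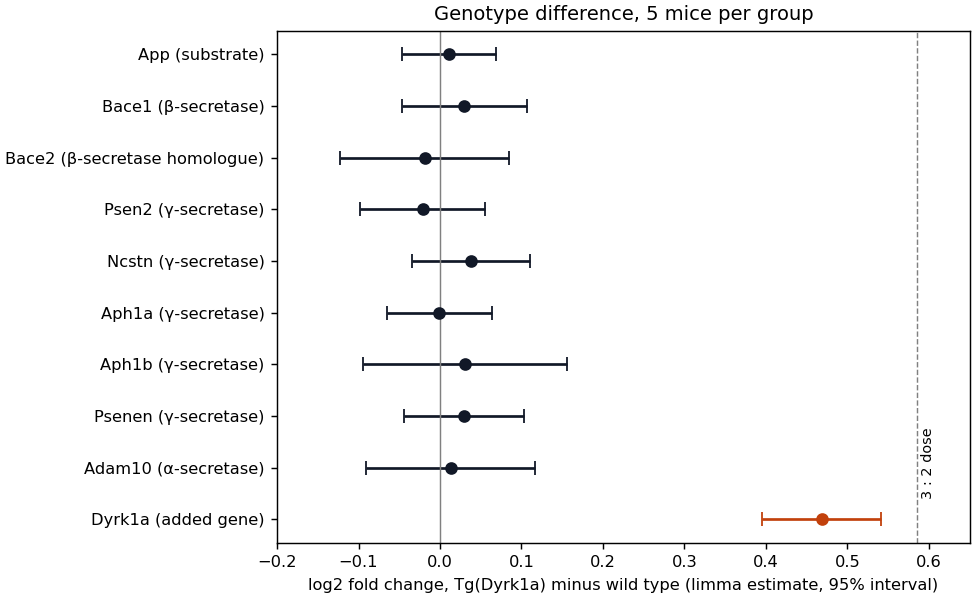
The horizontal axis gives the log2 fold change (transgenic minus wild type) of App, 8 secretase genes and Dyrk1a, with points for limma estimates and bars for 95% intervals from 5 mice per group. All 9 intervals of App and its secretases contain 0 and end below 0.16, whereas that of the brighter Dyrk1a transcript cluster runs from 0.40 to 0.54. The dashed line marks a 1.5-fold rise.

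Among the γ-secretase genes, Psen2 encodes a presenilin, the catalytic subunit. In log2 it stood at 8.05, 7.95, 7.93, 7.96 and 8.05 in wild-type replicates 1 to 5 and 8.01, 7.96, 7.96, 7.98 and 7.91 in Tg(Dyrk1a) replicates 1 to 5. Wild type replicates 1 and 5 were the highest of the 10 and Tg(Dyrk1a) replicate 5 the lowest. For Psen2 the log2 fold change was -0.02 ± 0.04 (SE) with a 95% interval of -0.10 to 0.05 (limma adjusted p = 0.976). Ncstn encodes nicastrin, which receives the substrate, and had the largest estimate of the 9. In log2 it measured 8.79, 8.86, 8.77, 8.82 and 8.88 in wild-type replicates 1 to 5 and 8.85, 8.90, 8.85, 8.91 and 8.81 in Tg(Dyrk1a) replicates 1 to 5. Of the 5 Tg(Dyrk1a) mice 4 exceeded the mean of the wild-type group, but the groups overlapped over most of their ranges. For Ncstn the log2 fold change was 0.04 ± 0.03 (SE) with a 95% interval of -0.03 to 0.11, a limma adjusted p of 0.953 and an exact permutation p of 0.198.

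Aph1a and Aph1b encode alternative APH-1 scaffold subunits of the complex. The log2 value of Aph1a was 9.83, 9.80, 9.80, 9.80 and 9.86 in wild-type replicates 1 to 5 and 9.84, 9.82, 9.79, 9.85 and 9.77 in Tg(Dyrk1a) replicates 1 to 5. The group difference was -0.00086, with a 95% interval of -0.07 to 0.06 (limma adjusted p = 0.999). On the array the transcript cluster used for Aph1a is numbered among genes of chromosome 1, while RefSeq places Aph1a on chromosome 3, and whether its probes read a second copy of the sequence was not tested. The other Aph1a transcript cluster, numbered among genes of chromosome 3, had a log2 fold change of 0.00302 with a 95% interval of -0.06 to 0.07 (limma adjusted p = 0.997). The log2 value of Aph1b was 9.20, 9.06, 8.996, 9.005 and 9.07 in wild-type replicates 1 to 5 and 9.16, 9.23, 9.05, 9.14 and 8.91 in Tg(Dyrk1a) replicates 1 to 5. Both the highest value, in replicate 2, and the lowest, in replicate 5, were in Tg(Dyrk1a) mice. Between the groups the log2 fold change was 0.03 ± 0.06 (SE) with the widest 95% interval of the 9, -0.09 to 0.16 (limma adjusted p = 0.976). Mice also have Aph1c, a close copy of Aph1b whose transcripts may share probes with it, and its log2 fold change, looked up after the others had been seen, was 0.00114 ± 0.07 (SE) (limma adjusted p = 1.00).

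Psenen encodes PEN-2, the smallest subunit, which is needed for the maturation of the presenilin. Its log2 value was 11.99, 12.04, 12.11, 12.05 and 12.07 in wild-type replicates 1 to 5 and 12.06, 12.07, 12.08, 12.16 and 12.04 in Tg(Dyrk1a) replicates 1 to 5. Tg(Dyrk1a) replicate 4 was the highest and wild type replicate 1 the lowest, and the other mice of both groups were interleaved. Psenen had a log2 fold change of 0.03 ± 0.03 (SE) with a 95% interval of -0.04 to 0.10 (limma adjusted p = 0.969). The other Psenen transcript cluster is numbered among genes of chromosome 4, although the gene lies on chromosome 7, and gave 0.03 ± 0.03 (SE).

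Covariation of the members across the mice was then examined. Over the 36 pairs of members the Pearson r across the 10 arrays was above 0 for 22 pairs and below 0 for 14, with a median of 0.15. None of the 36 pairs passed a permutation test after Benjamini-Hochberg adjustment, by r or by Spearman's rho, and 4 had an unadjusted permutation p of r under 0.05. The RNA of all mice was extracted and labelled by the same methods, and these values are descriptions of 10 arrays. For Aph1a they rest on the transcript cluster numbered among genes of chromosome 1, and the other Aph1a transcript cluster was not tested for covariation. Psen2 and Aph1a had the highest r, at 0.80 (permutation p = 0.00586, adjusted p = 0.211) with a rho of 0.84 (permutation p = 0.00380, adjusted p = 0.135), and r was 0.82 without the 2 arrays farthest from the Psen2 median. App and Adam10 followed with r = 0.70 (permutation p = 0.0244, adjusted p = 0.388) and a rho of 0.76 (permutation p = 0.0151, adjusted p = 0.181), and r was 0.71 without the 2 arrays farthest from the App median. Aph1b was tied to Aph1a at r = 0.67 and to Psen2 at r = 0.65, with permutation p of 0.0346 and 0.0432 (both adjusted p = 0.388). Their rho was 0.70 (permutation p = 0.0313) and 0.81 (permutation p = 0.00748), and r without the 2 farthest arrays was 0.88 and 0.79. The most negative pair was Psenen and Adam10, at r = -0.48 and a rho of -0.30 (permutation p = 0.160 and 0.407). With the genotype means removed, the r of Psen2 with Aph1a was 0.82 and that of App with Adam10 was 0.71. By r but not by rho, Psen2 and Aph1b passed with the 3 choroid-rich arrays left out (r = 0.96, n = 7, exact permutation adjusted p = 0.0429, and 0.398 for a rho of 0.89). The same held for Psen2 and Aph1a without wild type replicate 1 (r = 0.88, n = 9, exact permutation adjusted p = 0.0257, and 0.111 for a rho of 0.88).

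**Figure D3:**
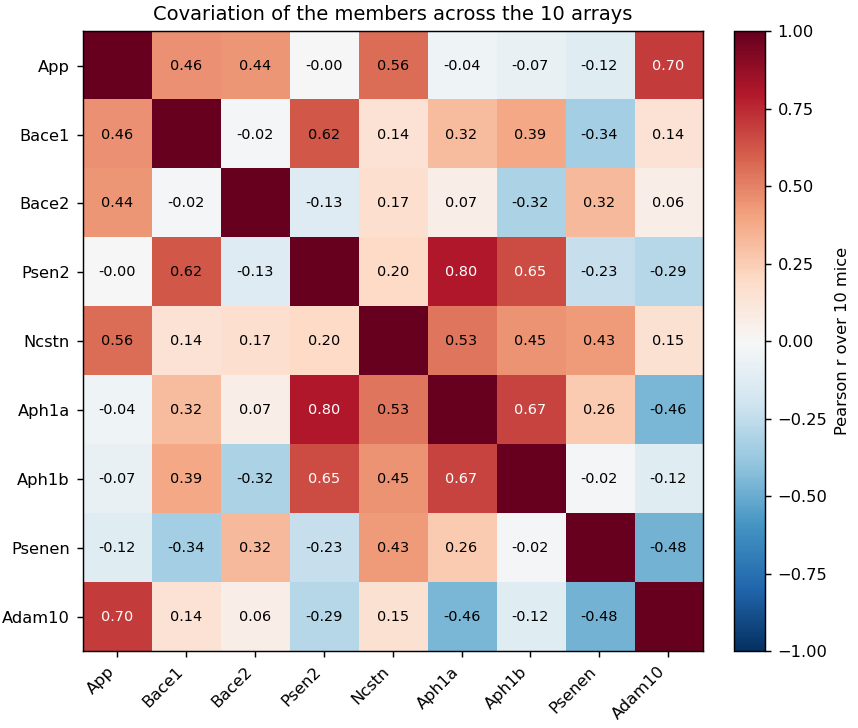
Pearson r across the 10 arrays for each pair of the 9 members, coloured from -1 (blue) to 1 (red). Psen2 with Aph1a at 0.80 and App with Adam10 at 0.70 are the highest of the 36 pairs, and none passed adjustment over the pairs.

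The other genes of the pathway were read from 7 lists of 112 genes, of which 105 were measured. By limma 0 of the 105 passed, against 0.00854% of all transcript clusters, with adjusted p from 0.947 to 1.00. Without adjustment 4 were higher and 1 lower at a limma p under 0.05, or 4.76% against 4.93% of all transcript clusters. The median log2 fold change was 0.01 over the 105 genes and 0.00199 over all genes. Of the 105 genes 66 were above 0, against 51.7% of all genes. The groups overlapped for all 105 genes, where only 0.807% of all transcript clusters had groups apart. FCROS placed 5 of them past its threshold, namely Ece2, Tyrobp, A2m, Ifitm3 and Notch1, which is near its share of 4.83% over all transcript clusters.

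The list of enzymes and receptors that degrade or clear amyloid-β had 0 of 16 genes past limma and a median log2 fold change of 0.03, with 12 genes above 0. Ece2, an endothelin-converting enzyme able to degrade the peptide, had the smallest limma p of the 105 genes. Its log2 value was 7.92, 7.99, 8.14, 8.003 and 8.12 in wild-type replicates 1 to 5 and 8.17, 8.14, 8.13, 8.26 and 8.23 in Tg(Dyrk1a) replicates 1 to 5. All 5 Tg(Dyrk1a) mice were above the wild-type average, and wild type replicate 3 reached into their range. The log2 fold change of Ece2 was 0.15 ± 0.05 (SE) with a limma adjusted p of 0.947 and an unadjusted exact permutation p of 0.0238. Across the alternatives Ece2 ran from 0.08, as the mean of all its transcript clusters, to 0.24, with marker scores as covariates. Tyrobp, the adaptor of the microglial receptor TREM2, had a log2 fold change of 0.14 ± 0.06 (SE) with a limma adjusted p of 0.947. Tyrobp was at 0.08 with the 3 choroid-rich arrays left out. The score of 9 microglial markers ran from -0.11 to 0.13 in Tg(Dyrk1a) and from -0.10 to 0.13 in wild-type mice. A2m, a protease inhibitor that binds amyloid-β, was at 0.30 ± 0.16 (SE), and its highest values were those of Tg(Dyrk1a) replicates 2 and 4. It was at 0.17 without Tg(Dyrk1a) replicate 2. With the 3 choroid-rich arrays left out A2m was at 0.10 (limma adjusted p = 0.888).

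The list of γ-secretase modulators and presenilin-like proteases had 0 of 11 genes past limma, 8 genes above 0 and a median log2 fold change of 0.04. Arrb2, which encodes β-arrestin 2, had a log2 fold change of 0.10 ± 0.05 (SE) and was higher than the wild-type mean in all 5 Tg(Dyrk1a) mice (limma adjusted p = 0.947, exact permutation p = 0.0952). Ifitm3, an interferon-induced membrane protein that binds γ-secretase, was at 0.23 ± 0.13 (SE), with values of 7.98, 8.53, 8.30, 8.43 and 8.40 in wild-type replicates 1 to 5 and 8.70, 8.92, 8.28, 8.27 and 8.59 in Tg(Dyrk1a) replicates 1 to 5. Only 3 of the 5 Tg(Dyrk1a) values exceeded the wild-type mean, and Ifitm3 was at 0.135 without Tg(Dyrk1a) replicate 2 and at 0.141 without wild type replicate 1. Gsap, a γ-secretase activating protein, was at 0.10 ± 0.06 (SE), and at 0.04 without Tg(Dyrk1a) replicate 2, which at 7.11 was the highest array.

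The partners of the 3 cutting steps showed no gene past limma either. Of the β-secretase partners 0 of 11 passed, with a median log2 fold change of 0.01. Rtn1 and Rtn4, reticulons that bind BACE1, were at 0.02 ± 0.03 (SE) and 0.04 ± 0.03 (SE), with limma adjusted p of 0.966 and 0.950. Rtn1 was higher than the wild-type mean in all 5 Tg(Dyrk1a) mice, and the unadjusted exact permutation p, which uses no spread from other genes, was 0.0159 for Rtn1 and 0.0476 for Rtn4. Ece2, Rtn1 and Rtn4 were the only ones of the 105 genes with an exact permutation p under 0.05. The share over all transcript clusters was not computed for that test. Nrbf2 was at 0.05 ± 0.04 (SE). Of the ADAM10 partners 0 of 11 passed, with a median of 0.025. Dlg1, a synaptic scaffold that binds ADAM10, was at -0.09 ± 0.06 (SE), Tspan10, a tetraspanin of the group that carries ADAM10 to the surface, at -0.09 ± 0.07 (SE) and Timp4, a metalloprotease inhibitor, at 0.07 ± 0.04 (SE). Of the remaining App family and α-secretase genes 0 of 6 passed, with Adam17, the other well-known α-secretase, at 0.07 ± 0.05 (SE), Adam19 at -0.01 ± 0.03 (SE) and Adam9 at -0.01 ± 0.04 (SE). Of the adaptors and sorting receptors of App 0 of 22 passed, with a median of 0.02. Gga2, an adaptor of the trans-Golgi network, was at 0.08 ± 0.05 (SE), Apba2, which binds the tail of the amyloid precursor protein, at 0.07 ± 0.05 (SE), and Sorcs1, a sorting receptor, at -0.08 ± 0.06 (SE). Several of these estimates moved by over 1.5 times with 1 array left out. Without Tg(Dyrk1a) replicate 2, Tspan10 was at -0.0383, Adam17 at 0.0248 and Gga2 at 0.0534. Without wild type replicate 1, Dlg1 was at -0.0466 and Sorcs1 at -0.0351. Without wild type replicate 3, Timp4 was at 0.0433 and Apba2 at 0.0353. Without Tg(Dyrk1a) replicate 5, Timp4 was at 0.0403 and Nrbf2 at 0.0278. Without Tg(Dyrk1a) replicate 1, Sorcs1 was at -0.0488 and Tspan10 at -0.143, and without replicate 3 Apba2 was at 0.0477.

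Of the other substrates of the same proteases 0 of 28 passed limma, with 13 above 0 and 15 below and a median log2 fold change of -0.00374. Notch1, the receptor that ADAM10 and γ-secretase release from the membrane, measured in log2 8.84, 8.80, 8.75, 8.78 and 8.70 in wild-type replicates 1 to 5 and 8.52, 8.60, 8.60, 8.86 and 8.62 in Tg(Dyrk1a) replicates 1 to 5. In all Tg(Dyrk1a) replicates but 1 the values lay below all wild-type values, and the exception, replicate 4, was above them all. Notch1 had a log2 fold change of -0.13 ± 0.06 (SE) with a limma adjusted p of 0.947 and an exact permutation p of 0.0714, and it was -0.19 without Tg(Dyrk1a) replicate 4 (limma adjusted p = 0.631). Dcc, a netrin receptor, was at 0.09 ± 0.04 (SE) and higher than the wild-type mean in all 5 Tg(Dyrk1a) mice (limma adjusted p = 0.947, exact permutation p = 0.0873). Cdh1, the E-cadherin gene, was at 0.07 ± 0.04 (SE).

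**Figure D4:**
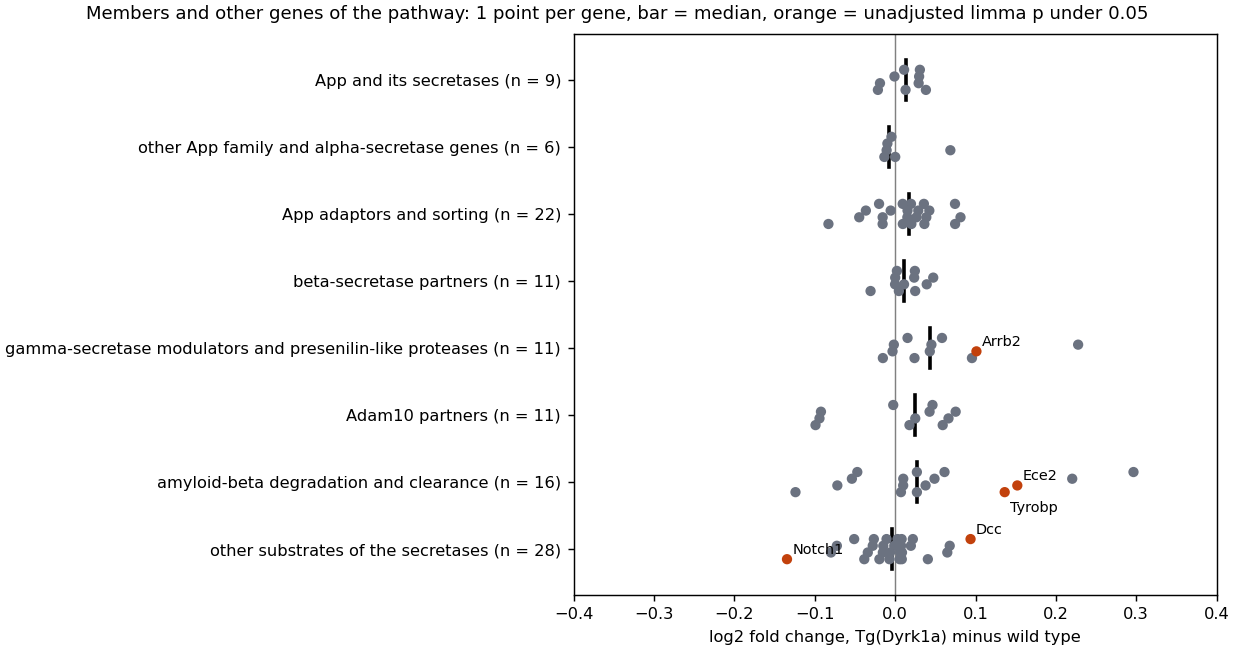
The horizontal axis gives the log2 fold change (transgenic minus wild type) of App and its secretases and of 7 lists of related genes, 1 point per gene, with a bar for the median of the list and orange for an unadjusted limma p under 0.05. The 9 members lie within 0.04 of 0, Ece2 stands at 0.15 and Notch1 at -0.13, and no gene passed adjustment.

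With arrays left out or other processing, the estimates of the 9 genes stayed inside their 95% intervals. Over 21 alternative settings for each gene the log2 fold changes ran from -0.07 to 0.08, and 0 of 189 values passed limma or the FCROS threshold. Settings that alter only the variance or the rows tested cannot change an estimate. The smallest limma adjusted p was 0.764. The direction of 5 members, Bace2, Psen2, Aph1a, Aph1b and Adam10, turned under at least 1 setting.

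**Figure D5:**
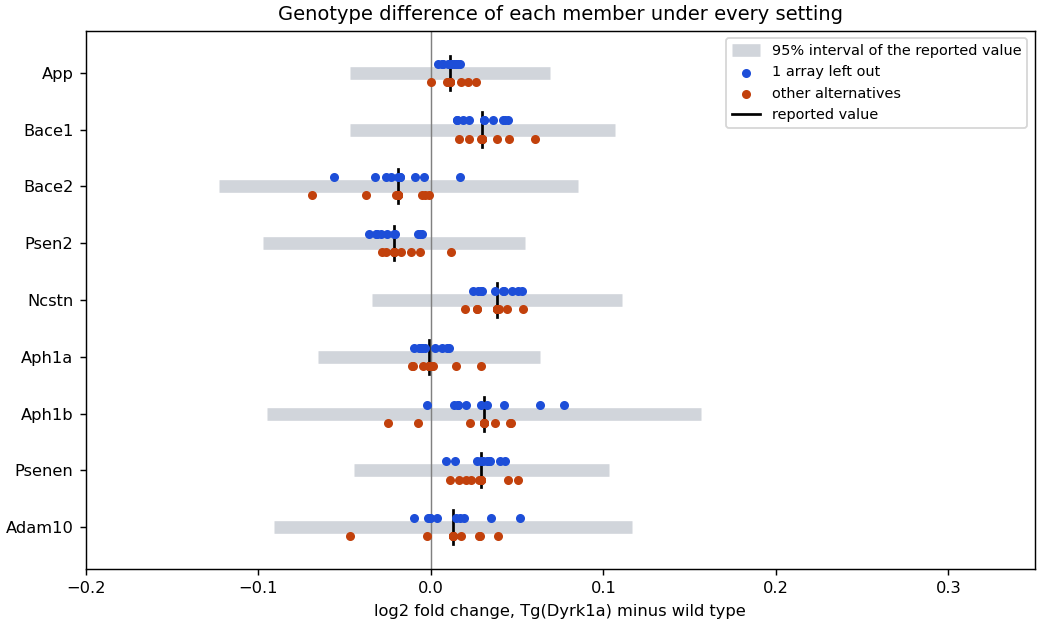
The horizontal axis gives the log2 fold change (transgenic minus wild type) of the 9 members under every setting: black bars for the reported value, grey bands for its 95% interval, blue points with 1 array left out and orange points for the other alternatives. The points stay inside the grey bands and run from -0.07 to 0.08.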

How the data were processed

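The authors deposited log2 values of Affymetrix Mouse Gene 1.0 ST arrays after RMA processing, which subtracts background, brings the probes of the arrays to a common distribution and summarises them per transcript cluster. The sources used here do not say which arrays shared a normalization. RMA compresses fold changes, above all of dim transcripts, and the number of arrays limits the precision.

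The table held 35556 rows, of which 23410 had a gene symbol in the platform annotation, 21789 of them with 1 symbol. The genotype contrast was fitted over the 23410 with limma (lmFit, eBayes; version 3.58.1, R 4.3.3), without covariates and with Benjamini-Hochberg adjustment at 0.05. Single genes also had a two-sided exact permutation test. Pairs of members were tested with 100000 permutations. FCROS was rewritten from its description, with 25% of ranks trimmed at each end and a tail of 0.025. The scripts were tested on simulated data.

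Members and lists were chosen with earlier results of these data known. The genes named are the members, Dyrk1a, the 3 smallest p of each list and the 3 genes most like App, Bace1 and Adam10. As alternatives the values were quantile normalized or centred on the median, the dimmest 30% were dropped or unannotated rows added, limma was run with a robust variance trend, with array weights, with replicate number as block or with choroid plexus, meningeal and thalamic scores as covariates, transcript clusters of a gene were averaged, FCROS took the place of limma, and single arrays or the 3 choroid-rich arrays were left out.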

Additional observations from a re-analysis of the deposited data

Results flagged for a closer look

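Among 62 groups of 5 arrays, covering the 9 members, Dyrk1a and 21 named pathway genes in both genotypes, 4 had 1 array far from the others, judged by the gap to the nearest array as a share of the group's range. Chance gives about 1 in 20. None of the 4 concerned App or a secretase. Apba2 was low in wild type replicate 3 (10.18 for the nearest array, share 0.895), and its log2 fold change was 0.04 without that array. Rtn4 was high in wild type replicate 4 (9.88 against 9.86, share 0.767). Gsap was low in wild type replicate 1 (6.70 against 6.81, share 0.736). Notch1 was high in Tg(Dyrk1a) replicate 4 (8.86 against 8.62, share 0.711), and its log2 fold change was -0.19 without that array.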

How the results depend on the processing

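The 9 members stayed short of the limma threshold under all 21 settings, and App, Bace1, Ncstn and Psenen kept their direction under all of them. Some settings could not turn a direction. Dropping dim rows, adding unannotated rows, the robust variance trend and the replicate block change the test but not the estimate. Averaging transcript clusters changes nothing for a gene with only 1. Direction turned with marker scores as covariates for Psen2 (log2 fold change 0.0116), Aph1a (0.0291) and Adam10 (-0.0467), with median centring for Aph1a (0.0144), with the mean of both transcript clusters for Aph1a (0.00108), with FCROS for Aph1a (0.000493), with array weights for Aph1b (-0.00737), with the 3 choroid-rich arrays left out for Aph1b (-0.0248) and with quantile normalization for Adam10 (-0.00198). With 1 array left out the estimates ran from -0.0564 to 0.0168 for Bace2, -0.00982 to 0.0103 for Aph1a, -0.00203 to 0.0773 for Aph1b and -0.00962 to 0.0519 for Adam10. Direction turned for Bace2 without wild type replicate 4 (0.0168), for Aph1b without Tg(Dyrk1a) replicate 2 (-0.00203), for Adam10 in 4 cases (Tg(Dyrk1a) replicate 2, -0.00962, and 3, -0.000784, wild type replicate 1, -0.000482, and 3, -0.00140), and for Aph1a in 4 (Tg(Dyrk1a) replicate 3, 0.00651, and 5, 0.00933, wild type replicate 1, 0.00225, and 5, 0.0103). Dyrk1a kept its call under 20 of 21 settings and lost it with marker scores as covariates (0.45, limma adjusted p = 0.413), and it was 0.31 as the mean of both its transcript clusters. The cause of these turns was not tested. Among named pathway genes, direction turned with marker scores for Adam17 (-0.0336), with median centring for Adam19 (0.00182) and Adam9 (0.00463), and without the 3 choroid-rich arrays for Adam9 (0.00374), which ran from -0.0334 to 0.00643 with 1 array left out and turned without Tg(Dyrk1a) replicate 4 (0.00643) or wild type replicate 1 (0.00306). Over the settings other than 1 array left out, Gsap ran from 0.0104 to 0.111 and Timp4 from 0.00245 to 0.0948. Gga2 ran from 0.0238 to 0.0966, Rtn4 from 0.00986 to 0.0545 and Tspan10 from -0.0923 to -0.0166. By limma 0 of the 105 pathway genes passed under any setting, and by FCROS 5 did. No list median moved by more than the spread between mice. The replicate number as a block cannot change an estimate, because each number occurs once per genotype. The member estimates therefore still ran from -0.02 to 0.04, and only the test changed (smallest limma adjusted p = 0.951). With the block 1 transcript cluster of 23410 passed, against 2 without it. The deviations of same-numbered arrays correlated at -0.29 to 0.28, and 1 of 5 numbers correlated best with itself. No pairing by number was seen, but 5 correlations of whole arrays cannot exclude one. With 1 array left out, 0 to 1 pairs of members passed adjustment by r: Psen2 and Aph1a did without wild type replicate 1 (r = 0.88, exact permutation adjusted p = 0.0257). Without the 3 choroid-rich arrays 1 pair passed by r, Psen2 and Aph1b (r = 0.96, exact permutation adjusted p = 0.0429). Neither pair passed by rho. The interval widths rest on the 5 mice per group and, through limma, on the spread of all transcript clusters tested. The dim Bace2 transcript cluster limits what could be seen of that gene.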

Other observations

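The genes whose values followed App, Bace1 and Adam10 most closely across the 10 arrays, once the genotype means were removed, were found among the 9745 other genes with a mean above the median. These are the highest of many values from 10 arrays made by the same methods, and they are given as a description. For App they were Tlk1, a kinase of chromatin assembly (r = 0.97, rho = 0.98), Usp12, a deubiquitinase (r = 0.96, rho = 0.95), and Atp6v1h, a subunit of the vacuolar proton pump (r = 0.94, rho = 0.94). For Bace1 they were Cyb561, a cytochrome of secretory vesicles (r = 0.94, rho = 0.89), Tmem106c (r = 0.94, rho = 0.95) and Tspyl4 (r = 0.94, rho = 0.96). For Adam10 they were Thap1, a transcription factor (r = 0.94, rho = 0.96), Hsdl2 (r = 0.94, rho = 0.92) and Tmem87a (r = 0.94, rho = 0.98). None of these 9 genes passed limma between the genotypes. Hsdl2 had the largest log2 fold change of them, 0.13 (limma adjusted p = 0.947).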
